A study of Mus musculus with 24 samples.

Results

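The transcripts compared here are those of mouse adipocytes in culture on day 8 and day 6 of a differentiation course, and the samples were chosen by the day given in their labels. Both days had 3 replicates, so 6 of the 24 samples of the series enter the comparison, and all 9558 genes with a detected probe were tested. Day 8 and day 6 carry the same stage label, maturating, and the same treatment: a differentiation medium with IBMX, insulin and dexamethasone, followed by a maturation medium that contains insulin. The cells of both days are of 1 line, NIH 3T3 L1, a mouse fibroblast line that turns into fat-storing cells in culture. Per the labels' protocols, total RNA was purified, amplified to biotin-labelled cRNA and hybridised to Illumina beadchips. The day on which the inducing medium was replaced, the chip that held each sample, and whether the replicates were separate cultures are not given in the sources used here. The p-values therefore measure the spread between these samples, which may be technical.

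The inducing medium starts adipogenesis through several routes. Dexamethasone is a synthetic hormone that activates the glucocorticoid receptor, a transcription factor that binds DNA directly and switches on genes such as Fkbp5 and Tsc22d3. IBMX blocks the breakdown of cyclic AMP, and insulin drives the uptake of sugar and the building of fat. Early factors such as Cebpb and Klf5 then give way to Pparg and Cebpa, which keep up the genes of the fat cell, and the maturing cells fill with lipid, secrete hormones and rebuild the matrix around them.

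Levels are normalized log2 intensities of 1 probe per gene, the one with the highest mean. Differences are day 8 minus day 6, with the standard error (SE) of a limma fit on all 24 arrays, and n is 3 arrays per day throughout. A gene is said to have risen or fallen where the Benjamini-Hochberg adjusted p of that fit was under 0.05. Between 45.5% and 47.8% of the probes were detected on the 6 arrays, and the correlation between replicates, taken over genes within a day, was 0.986 to 0.993. Of the 19 adipocyte markers with a probe, 18 were detected on all 6 arrays, so the labelled cell type had its markers on both days. Of 21 preadipocyte markers and inhibitors of adipogenesis with a probe, 18 were detected on all 6 as well. Detection alone therefore does not tell adipocytes from undifferentiated cells in the culture. One array outside the comparison, replicate 2 of day 4, stood apart from the other arrays of its day (Sncg was at 9.09 there, against 5.86 and 5.48), and it enters the spread of every gene. Where leaving it out changes the call of a gene named here, both values are given. In a bulk sample, fewer cells of a type and less RNA per cell cannot be told apart.

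Between day 8 and day 6, 1242 of the 9558 genes (13%) changed: 721 (7.54%) were higher on day 8 and 521 (5.45%) were lower. With the replicate number as a block the count was 2231 (23.3%), of which 1217 (12.7%) were higher and 1014 (10.6%) lower, and it contained all 1242 genes in the same direction. The changes were mostly small, with a median size of 0.51 among the called genes, and 120 genes (1.26%) changed at least 2-fold, 74 of them upward and 46 downward. All 1242 moved the same way in the 3 replicate numbers, as did 54.8% of all genes tested. The arrays of the 2 days did not overlap for 1224 of the 1242, and for 26.7% of all genes. Without replicate 3 of day 8 the number of genes that fell was 330. Each list count below is to be read beside the shares of all genes. These are 7.54% higher and 5.45% lower, and 12.7% and 10.6% with the block.

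**Figure D1:**
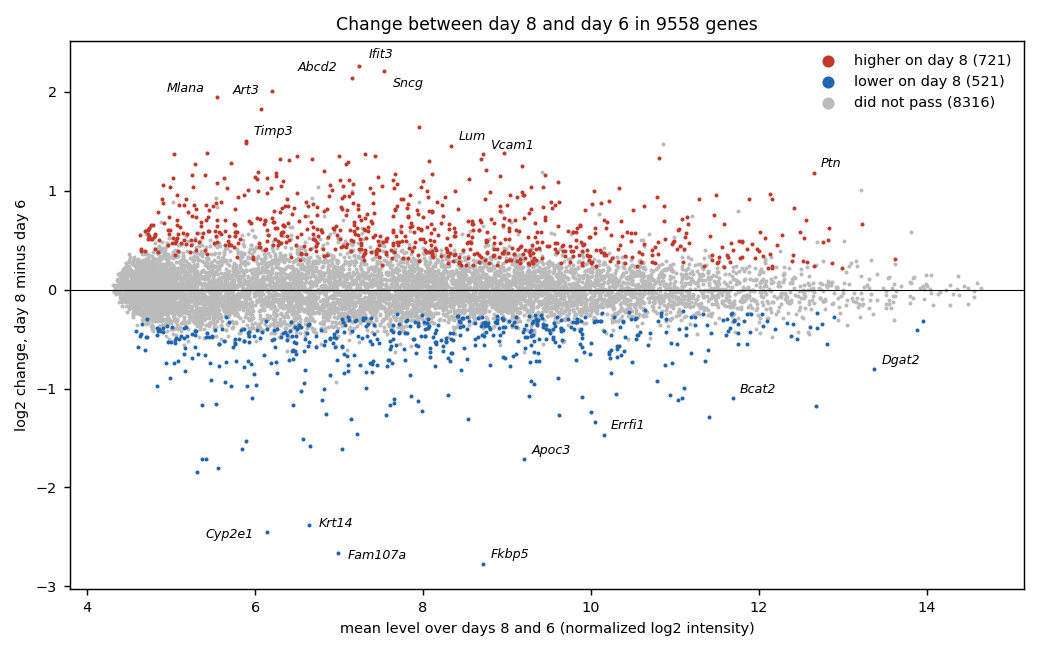
Log2 change between day 8 and day 6 (vertical axis) against the mean level over both days (horizontal axis, normalized log2 intensity) for 9558 genes, with 721 genes higher on day 8 in red, 521 lower in blue and the others in grey. The largest falls, Fkbp5, Fam107a, Cyp2e1 and Krt14, lie beyond -2, and the largest rises, Ifit3, Sncg, Abcd2 and Art3, lie above 2.

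Known targets of the glucocorticoid receptor held 3 of the 15 largest falls, among them the first 2. Of 18 tested genes of a list of these targets, 11 fell and 0 rose, where 5.45% of all genes fell, and the list's median change was -0.60, against -0.01 over all genes. With the replicate block 12 fell and 1 rose, and leaving out 1 array gave 10 or 11 falls. The list was put together with results of these data known, so its direction is a description.

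Fkbp5, a co-chaperone that holds the receptor in its less active form, showed the largest fall of any gene called. It lies on GRCm38 at chr17:28398753-28486149. Its level was 7.32, 7.35 and 7.33 on the day 8 arrays and 10.15, 10.09 and 10.06 on the day 6 arrays. The 2 days stood far apart, with arrays of a day close together, and the change was -2.77 ± 0.10, a 6.82-fold fall (adjusted p = 8.28e-13). Fam107a, an actin-binding protein of the stress response (chr14:8296270-8317607), had 5.74, 5.72 and 5.51 on day 8 and 8.21, 8.47 and 8.28 on day 6. It fell by 2.66 ± 0.11, or 6.34-fold (adjusted p = 1.12e-12), again with no overlap. Errfi1, which restrains the epidermal growth factor receptor (chr4:150853796-150868889), was at 9.42, 9.50 and 9.35 on day 8 and at 11.03, 10.84 and 10.80 on day 6. Its change was -1.47 ± 0.12 (adjusted p = 4.81e-08).

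Serpina3n, a secreted protease inhibitor, fell by 0.99 ± 0.07, with 6.83, 6.75 and 6.90 on day 8 and 7.85, 7.85 and 7.76 on day 6. Lcn2, a secreted carrier of iron-binding molecules, fell by 0.62 ± 0.17, but its call rested on single arrays: the adjusted p was 0.116 without replicate 3 of day 8 and 0.0628 without replicate 1 of day 6. Per1, a repressor of the clock that glucocorticoids also induce, fell by 0.52 ± 0.15 and likewise had an adjusted p of 0.0702, 0.0887 and 0.141 without replicate 1 of day 8, replicate 2 of day 8 and replicate 3 of day 6. The other 5 that fell, named after their values were seen, were Ddit4 (-0.92), an inhibitor of mTOR signalling, Tsc22d3 (-0.76), Nfkbia (-0.63), the inhibitor of NF-kappaB, the kinase Sgk1 (-0.57) and the metal-binding Mt1 (-0.40). Glul, glutamine synthetase, had 5.78, 7.14 and 6.56 on day 8 and 6.61, 8.16 and 7.50 on day 6. The days overlapped because the replicates differed widely, and the adjusted p was 0.34 without the block and 0.0117 with it. Of the 7 members that did not pass, Hsd11b1 and Orm1 had the highest values, both at 0.29.

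The promoters of the members that fell are shown because the receptor binds a palindrome of known letters. The window taken was 250 bases before to 50 after each start in RefSeq's annotation of GRCm38.p6, and the palindrome GNACA, any 3 bases, TGTNC, which was chosen after the data were seen, was searched in it on both strands. It occurred in 4 of the 11 windows (36.4%), against 34 of 7786 tested genes with a window (0.437%). Of all genes that fell, 6 of 430 with a window held it (1.4%), and these 6 include the 4 listed targets. The sites follow on the strand of the gene, with 30 bases on either side and the match in capitals: Fam107a at chr14:8309855-8309927 (minus strand), Mt1 at chr8:94178965-94179037, Serpina3n at chr12:104406600-104406672 and Sgk1 at chr10:21993672-21993744 (all plus strand).
Fam107a: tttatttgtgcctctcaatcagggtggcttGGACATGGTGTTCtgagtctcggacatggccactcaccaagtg
Mt1: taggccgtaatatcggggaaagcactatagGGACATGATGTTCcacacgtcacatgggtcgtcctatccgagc
Serpina3n: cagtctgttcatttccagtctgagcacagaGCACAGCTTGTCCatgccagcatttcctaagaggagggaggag
Sgk1: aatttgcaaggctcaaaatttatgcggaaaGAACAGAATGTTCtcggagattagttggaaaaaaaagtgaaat
These matches describe the letters of the windows and were not tested as binding sites. The windows of Fkbp5 and Errfi1 held no match.

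Other genes fell by a similar amount. Cyp2e1, a cytochrome P450 that oxidises ethanol and small solvents (chr7:140763819-140774990), was at 5.05, 4.93 and 4.76 on day 8 and at 7.37, 7.56 and 7.16 on day 6. It was detected on 2 of the 3 day 8 arrays and fell by 2.45 ± 0.11 (adjusted p = 2.88e-12). Krt14, a keratin filament protein of basal epithelium (chr11:100203162-100207510), had 5.47, 5.60 and 5.29 on day 8 and 7.89, 7.85 and 7.76 on day 6, a change of -2.38 ± 0.09 (adjusted p = 9.67e-13). Krt8 and Krt18, which pair with each other in simple epithelium, fell by 0.55 ± 0.11 and 0.56 ± 0.12. Thus 3 of the 4 tested epithelial markers fell, with a median of -0.55. The summed intensity of the 7 epithelial markers with a probe was 853 to 864 on day 8 and 1057 to 1156 on day 6, and Krt5, Cldn4 and Ocln were detected on none of the 6 arrays. Their part in the result was not tested.

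Several secreted and metabolic products reached the background on day 8. Ang4, a secreted ribonuclease that kills microbes, was not detected on any day 8 array and was at least 2.63-fold lower than on day 6 (adjusted p = 4.89e-10). Retnla, a resistin-like secreted protein, was at least 2.63-fold lower (adjusted p = 1.81e-11), and Elovl3, which lengthens very long fatty acids and is known from brown fat, at least 2.70-fold lower (adjusted p = 5.31e-09). Of 6 tested brown and beige fat markers, however, 1 rose and 1 fell, with a median of 0.30, and 2 rose and 2 fell with the block. The marker that rose was Cox7a1 (adjusted p = 0.00472). Cox8b was 0.75 higher, with an adjusted p of 0.365, and of 5.51e-05 without day 4 replicate 2. In all, 19 genes that fell were detected on day 6 and on no day 8 array. Apoc3, which inhibits lipoprotein lipase, had 8.51, 8.28 and 8.25 on day 8 and 10.13, 9.92 and 10.13 on day 6, a change of -1.72 ± 0.12. The remaining genes among the 15 largest falls were Slc39a4 (-1.80), an importer of zinc, Tmem82 (-1.61), Nrap (-1.61), an actin anchor of muscle, the cation channel Pkd2l1 (-1.58), Ppp1r1b (-1.53), an inhibitor of protein phosphatase 1, and the retinol dehydrogenase Rdh12 (-1.51). The other probes of Ppp1r1b changed by -0.24 and -0.07 only.

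**Figure D2:**
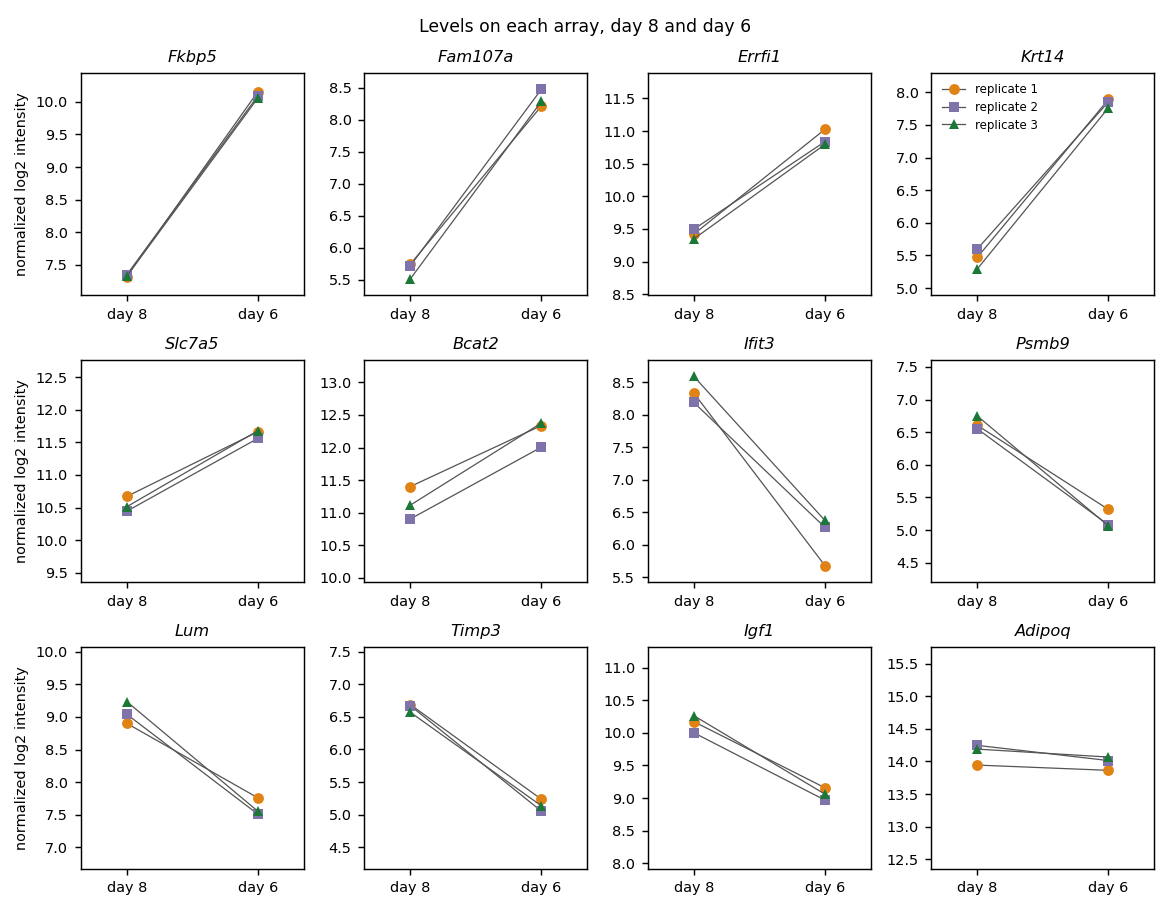
Normalized log2 intensity on each array for 12 genes, day 8 on the left and day 6 on the right of each panel, with arrays of the same replicate number joined by a line and all vertical axes given the same minimum span. The first 6 genes lie lower on day 8 on every array, the next 5 lie higher, and Adipoq lies between 13.9 and 14.3 on both days.

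Interferon-stimulated genes were the list with the highest median change. Of 22 tested members 11 rose and 0 fell, where 7.54% of all genes rose, and the median was 0.64. The count was 12 with the replicate block and 7 without replicate 3 of both days. Of the 31 listed genes 9 were not tested, among them Ifit1, Mx1, Oas1a and Ifih1, whose probes were below detection. Ifit3, an antiviral protein that binds other members of its family (chr19:34583119-34588982), had the largest rise of any gene called, with 8.33, 8.19 and 8.59 on day 8 and 5.68, 6.27 and 6.38 on day 6. Its change was 2.26 ± 0.49, a 4.80-fold rise (adjusted p = 0.00342). The days did not overlap. On day 4, which enters the SE, replicate 2 was at 7.89 and the others were at 4.80 and 4.79, and without that array the SE was 0.15 (adjusted p = 5.11e-09). Its other probes changed by 1.61 and 1.75. A close relative of the gene could share its signal.

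Psmb9, a subunit of the proteasome that cuts antigens, had 6.61, 6.55 and 6.75 on day 8 and 5.32, 5.08 and 5.06 on day 6, a rise of 1.48 ± 0.28 (adjusted p = 0.000918). Gbp3, an interferon-induced GTPase, rose by 1.27 ± 0.19 and its other probe by 1.58. Oasl2, a relative of the enzymes that sense double-stranded RNA, rose by 1.82 ± 0.39, but its other probe changed by 0.04. Ifi27l2a was at 11.29, 11.73 and 11.76 on day 8 and at 9.62, 10.40 and 10.34 on day 6. These arrays did not overlap, yet the gene did not pass (1.47 ± 0.83, 95% interval -0.26 to 3.20, adjusted p = 0.301). Without day 4 replicate 2 its adjusted p was 0.00173. In the machinery that loads peptides on MHC class I 5 of 16 rose and 0 fell, with a median of 0.33, and 3 rose without replicate 3 of day 8 or without replicate 2 of day 6. Nlrc5, the activator of the MHC class I genes, was detected on no day 6 array and was at least 1.77-fold higher on day 8 (adjusted p = 1.27e-05). The peptide transporter subunit Tap2 rose by 0.69 ± 0.12 and the proteasome subunit Psmb10 by 0.62 ± 0.10. B2m, the light chain of MHC class I, was 0.66 ± 0.20 higher, and its call was lost without any of 5 of the 6 arrays (adjusted p 0.0564 to 0.109). Without day 4 replicate 2 its adjusted p was 0.000831.

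The factors that answer interferon bind TTTC, any 2 bases, TTTC, and its sites in the members that rose are shown for that reason. Searched on both strands of the same windows, it occurred in 6 of the 10 members that rose and have a window (60%). It also occurred in 10 of the 19 windows of the whole list (52.6%), 4 of them of members that did not pass. It was in 6.49% of all genes that rose, a share that includes the 6 members, in 2.09% of those that fell and in 283 of the 7786 tested genes (3.63%). The sites, on the strand of the gene with the match in capitals (a match that starts with GAAA is the same element read from the other strand), are those of Ifit3 at chr19:34583377-34583446, Gbp2 at chr3:142620574-142620643, Gbp3 at chr3:142559969-142560038, Igtp at chr11:58199492-58199561 and Stat2 at chr10:128270248-128270315 (all plus strand) and of Isg15 at chr4:156200851-156200920 (minus strand). The windows of Ifit3, Gbp3 and Isg15 hold further matches, those of Gbp3 and Isg15 overlapping the one shown.
Ifit3: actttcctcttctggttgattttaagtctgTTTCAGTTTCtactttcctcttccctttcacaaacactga
Gbp2: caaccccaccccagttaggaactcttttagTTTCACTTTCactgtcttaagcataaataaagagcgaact
Gbp3: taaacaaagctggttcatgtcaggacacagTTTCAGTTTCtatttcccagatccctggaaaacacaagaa
Igtp: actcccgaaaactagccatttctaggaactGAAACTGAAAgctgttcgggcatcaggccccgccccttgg
Isg15: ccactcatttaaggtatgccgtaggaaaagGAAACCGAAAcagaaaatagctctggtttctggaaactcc
Stat2: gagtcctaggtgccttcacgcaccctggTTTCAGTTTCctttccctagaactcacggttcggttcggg
The log2 rises beside these sites were 1.05 for Isg15, a ubiquitin-like modifier, 0.91 for the GTPase Igtp, 0.88 for the GTPase Gbp2 and 0.55 for Stat2, a subunit of the interferon-activated transcription factor. Igtp, Isg15, Gbp2 and Stat2 are named for their sites, after their values were seen.

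In the list of fibrillar and fibroblast matrix genes 15 of 31 tested members rose and 0 fell, the median was 0.56, and with the replicate block 22 rose. Lum, a proteoglycan that spaces collagen fibrils (chr10:97565501-97572703), was at 8.90, 9.04 and 9.24 on day 8 and at 7.76, 7.51 and 7.55 on day 6, a rise of 1.45 ± 0.23 (adjusted p = 0.000184). Timp3, an inhibitor of matrix proteases (chr10:86300412-86349505), had 6.69, 6.67 and 6.57 on day 8 and 5.24, 5.05 and 5.14 on day 6. Its log2 change was 1.50 ± 0.16 (adjusted p = 3.71e-06), whereas its other probe changed by -0.05.

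Col1a1, a chain of type I collagen, rose by 1.02 ± 0.19, with 10.90, 10.64 and 10.98 on day 8 and 9.91, 9.43 and 10.12 on day 6. Thbs2, a matrix protein that restrains vessel growth, rose by 1.04 ± 0.26. Its adjusted p was 0.0564 without replicate 3 of day 6 and 7.25e-07 without day 4 replicate 2. Col3a1 had 8.84, 10.84 and 10.37 on day 8 and 8.06, 9.43 and 8.99 on day 6, so the days overlapped and the gene passed only with the block (adjusted p = 0.232 without it and 4.1e-05 with it). Outside the list, Ogn, another small proteoglycan, rose by 1.38 ± 0.25, although the mean of its probes gave 0.94 with an adjusted p of 0.071. Mfap4, a protein of elastic microfibrils, was detected on no day 6 array and was at least 2.37-fold higher on day 8 (adjusted p = 5.08e-06). Among 18 tested basement membrane genes 3 rose and 1 fell, where 7.54% of all genes rose and 5.45% fell, and the median was 0.01. With the block 4 rose and 4 fell, and no rise was left without replicate 1 of day 8, replicate 3 of day 8 or replicate 2 of day 6.

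Genes of the contractile cytoskeleton and of vessel growth also moved upward. In the actin list 7 of 15 rose and 0 fell, with a median of 0.39, and 4 rose without replicate 3 of day 8. Acta1, the actin of skeletal muscle, had 6.25, 6.46 and 6.35 on day 8 and 5.08, 5.06 and 5.07 on day 6, a rise of 1.28 ± 0.13, and the tropomyosin Tpm1 rose by 0.99 ± 0.10. Actins are close in sequence and may share signal. Acta2, the actin of smooth muscle, was 0.97 ± 0.27 higher, with an adjusted p of 0.0506 to 0.0712 in the 4 of 6 cases in which leaving out 1 array ended its call. Without day 4 replicate 2 in the fit its adjusted p was 1.3e-06. Of 17 angiogenic factors 9 rose and 0 fell, with a median of 0.40. Ptn, a heparin-binding growth factor, had 13.28, 13.15 and 13.32 on day 8 and 12.24, 11.94 and 12.02 on day 6, a rise of 1.18 ± 0.13 (adjusted p = 3.45e-06). Fgf7, a growth factor for epithelium, rose by 1.06 ± 0.13. Angpt2, a ligand of the endothelial receptor Tek, rose by 0.77 ± 0.10. Fgf1, a growth factor of the same family as Fgf7, was detected on no day 6 array and was at least 2.06-fold higher on day 8 (adjusted p = 1.35e-05), while its other probe changed by 0.48. Vegfa, the main growth factor of vessels, had a change of 0.03.

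**Figure D3:**
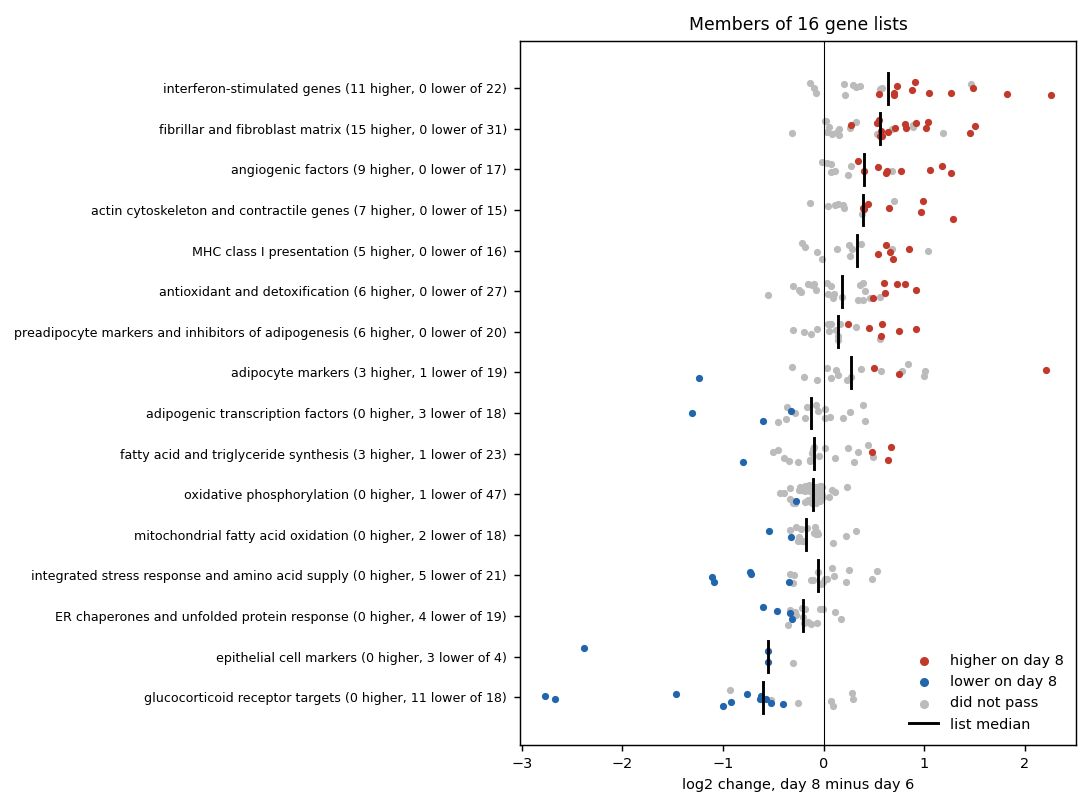
Log2 change of each tested member of 16 gene lists between day 8 and day 6 (horizontal axis), with genes higher on day 8 in red, genes lower in blue, genes that did not pass in grey and the list median as a black bar. Interferon-stimulated genes have the highest median, 0.64, and glucocorticoid receptor targets the lowest, -0.60.

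Among signals between cells, Igf1, the insulin-like growth factor (chr10:87858265-87937047), was at 10.17, 10.00 and 10.26 on day 8 and at 9.16, 8.97 and 9.06 on day 6. It rose by 1.08 ± 0.13, or 2.12-fold (adjusted p = 1e-05). Igfals, which carries that factor in complexes, rose by 1.64 ± 0.36, and Inhbb, a subunit of activin, by 1.37 ± 0.29. In the list of chemokines and acute phase proteins 6 of 25 rose and 3 fell, with a median of 0.09. Vcam1, an adhesion molecule for leukocytes, rose by 1.37 ± 0.16, Cxcl1, a chemokine for neutrophils, by 1.28 ± 0.11, and the pattern-recognition protein Ptx3 by 0.89 ± 0.19. Serpina3n, Lcn2 and Cxcl13, a chemokine for B cells, went the other way, and 1 fell without replicate 3 of day 8. Cxcl13 was detected on 0 day 8 arrays and 1 day 6 array. Antioxidant genes showed 6 rises and 0 falls of 27, where 7.54% of all genes rose. With the block there were 12 rises and 3 falls, where 12.7% of all genes rose and 10.6% fell. The conjugating enzyme Gstm2 (0.91 ± 0.17), the extracellular superoxide dismutase Sod3 (0.81 ± 0.17) and the heme-degrading Hmox1 (0.73 ± 0.12) led the antioxidant rises.

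Several genes that define the fat cell, Adipoq among them, moved little and did not pass. Adipoq, the hormone adiponectin, had 13.94, 14.25 and 14.19 on day 8 and 13.86, 14.01 and 14.07 on day 6. The days overlapped, the change was 0.14 ± 0.11 with a 95% interval of -0.09 to 0.38, and the adjusted p was 0.503. The lipase Lpl changed by 0.07 (95% interval -0.08 to 0.22), the fatty acid binder Fabp4 by 0.12 (-0.24 to 0.48), the lipid droplet coat Plin1 by 0.23 (-0.03 to 0.49), the glucose transporter Slc2a4 by -0.06 (-0.30 to 0.18) and the hormone Retn by -0.19 (-0.60 to 0.22), none past the threshold. In the list of adipocyte markers 3 of 19 rose and 1 fell, where 7.54% of all genes rose and 5.45% fell. The median was 0.27, with 15 positive and 4 negative changes, and 5 rose and 2 fell with the block.

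Sncg, a synuclein abundant in fat cells, had 8.78, 8.60 and 8.53 on day 8 and 6.52, 6.24 and 6.51 on day 6, a rise of 2.21 ± 0.53 (adjusted p = 0.00778). The 2 days did not overlap, but its adjusted p was 0.0549 to 0.0693 when 1 replicate number was left out of both days, and 1.22e-09 without day 4 replicate 2. Lep, the hormone leptin, rose by 0.75 ± 0.16 and Plin4, another droplet coat, by 0.51 ± 0.07, whereas Agt, the precursor of angiotensin, fell by 1.23 ± 0.12. A further 3 markers had no overlap between the days and did not pass. Rarres2, the adipokine chemerin, was at 13.72, 13.72 and 13.71 on day 8 and at 12.74, 12.70 and 12.70 on day 6, with a change of 1.01 and an adjusted p of 0.127. Aqp7, a glycerol channel, had 9.33, 9.49 and 9.16 on day 8 and 8.72, 8.54 and 8.39 on day 6 (0.78, adjusted p = 0.175), and Car3, a carbonic anhydrase, had 7.49, 7.64 and 7.85 on day 8 and 6.91, 6.65 and 6.42 on day 6 (1.00, adjusted p = 0.336). Without day 4 replicate 2 in the fit their adjusted p was 5.63e-07, 9.72e-06 and 1.23e-05, in that order, and 6 markers rose. Apoc1, a small apolipoprotein whose levels were 14.22, 13.99 and 14.08 on day 8 and 13.56, 13.58 and 13.42 on day 6, had an adjusted p of 0.627 in the fit of all arrays and 3.37e-05 without that array. These 4 genes were singled out after their values were seen.

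Of 18 transcription factors of adipogenesis 3 fell and 0 rose, with a median of -0.12, and 5 fell and 1 rose with the block. Klf5, an early activator of the programme, had 6.60, 6.36 and 6.51 on day 8 and 8.00, 7.75 and 7.65 on day 6, a change of -1.31 ± 0.15 (adjusted p = 5.02e-06). Rxra, the partner of Pparg on DNA, fell by 0.60 ± 0.11. The third, the sterol-sensing receptor Nr1h3, was 0.32 ± 0.09 lower and lost its call without replicate 2 of day 8, replicate 1 of day 6 or replicate 3 of day 6 (adjusted p 0.0733 to 0.109). Pparg itself changed by 0.06 (95% interval -0.16 to 0.29), Cebpa by -0.36 (-0.70 to -0.02), Cebpb by -0.18 (-0.37 to 0.01) and Srebf1 by 0.20 (-0.07 to 0.46), none of which passed. Of 20 preadipocyte markers and inhibitors of adipogenesis 6 rose and 0 fell, with a median of 0.15, and 8 rose and 1 fell with the block. Dlk1, the inhibitor known as preadipocyte factor, had 11.74, 11.47 and 12.02 on day 8 and 10.92, 10.62 and 10.95 on day 6, a rise of 0.91 ± 0.13, and the transcription factors Gata2 and Twist1 rose by 0.75 ± 0.15 and 0.57 ± 0.14.

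Lipid metabolism changed unevenly. In the list of fatty acid and triglyceride synthesis 3 of 23 rose and 1 fell, with a median of -0.10, and the counts were 8 and 5 with the block. Dgat2, which adds the last fatty acid to triglyceride, was at 13.11, 12.87 and 12.95 on day 8 and at 13.90, 13.68 and 13.75 on day 6, a change of -0.80 ± 0.08 (adjusted p = 2.11e-06). Acly, which makes the acetyl units of fat, rose by 0.48 ± 0.10, and Elovl6, which lengthens saturated fatty acids, by 0.64 ± 0.15. Fasn, the fatty acid synthase, passed only with the block (-0.34 ± 0.17, adjusted p = 0.227 without it and 0.0326 with it), and the desaturase Scd1 changed by 0.01 (95% interval -0.29 to 0.31). Of 17 genes of cholesterol synthesis and uptake 4 rose and 1 fell, where 7.54% of all genes rose and 5.45% fell. With the block 8 rose, beside 12.7% of all genes. The count of rises was 2 without replicate 3 of day 8, replicate 2 of day 6 or replicate 3 of day 6. Insig1, the sterol sensor that holds back this pathway, was 0.37 ± 0.12 higher (adjusted p = 0.0523, 0.0291 with the block and 0.0397 without day 4 replicate 2). Cyp51, which removes a methyl group from lanosterol, fell by 0.56 ± 0.13. Abcd2, which carries very long fatty acids into peroxisomes, had 8.51, 8.04 and 8.12 on day 8 and 6.23, 5.91 and 6.13 on day 6. Its rise was 2.13 ± 0.43, or 4.39-fold (adjusted p = 0.0018), and 1.91 by its other probe.

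In the respiratory chain 1 of 47 tested subunits of oxidative phosphorylation fell, a smaller share than the 5.45% of all genes. The median was -0.11 and 43 values were negative. The gene that fell was Ndufv1 (-0.27 ± 0.08), a subunit of complex I, with its call lost without replicate 3 of day 8, replicate 1 of day 6 or replicate 2 of day 6 (adjusted p 0.0505 to 0.105). With the block 9 fell, where 10.6% of all genes did, and with median scaling in place of quantile normalization 5. In the citric acid cycle 2 of 20 fell, with a median of -0.13. The count was 8 with the block, 5 with median scaling, 4 without replicate 1 of day 8 and 1 without replicate 3 of day 8. In mitochondrial fatty acid oxidation 2 of 18 fell, and 5 with the block, with a median of -0.18, and 0 fell without replicate 3 of day 8 or without replicate 1 of day 6. None of these lists had a member that rose in the fit without the block.

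Several genes of amino acid metabolism and transport fell. Of 16 tested genes of branched-chain amino acid breakdown 3 fell and 1 rose, with a median of -0.15, and 4 fell and 1 rose with the block. Bcat2, the mitochondrial enzyme that starts the breakdown of branched-chain amino acids (chr7:45568967-45589710), had 11.40, 10.90 and 11.12 on day 8 and 12.34, 12.01 and 12.38 on day 6. It fell by 1.10 ± 0.15, or 2.14-fold (adjusted p = 3.49e-05), with every day 8 array below every day 6 array. Bcat1, its cytosolic counterpart, rose by 0.98 ± 0.13 by one probe and changed by 0.04 by the other. Prodh, the first enzyme of proline breakdown, fell by 1.26 ± 0.15. Of 21 genes of the integrated stress response and amino acid supply 5 fell and 0 rose, with a median of -0.06. With the block 5 fell and 3 rose, and 3 fell in a fit of the 6 arrays alone. Slc7a5, a transporter of large neutral amino acids, was at 10.67, 10.44 and 10.51 on day 8 and at 11.66, 11.56 and 11.68 on day 6, a change of -1.09 ± 0.10 (adjusted p = 7.72e-07). Cth, which makes cysteine, fell by 1.11 ± 0.21 and Mthfd2, a mitochondrial enzyme of one-carbon metabolism, by 0.73 ± 0.12. Among ER chaperones 4 of 19 fell and 0 rose, with a median of -0.20, and 1 fell without replicate 3 of day 8 and 2 without replicate 1 of day 8, replicate 2 of day 6 or replicate 3 of day 6. Xbp1, a transcription factor of the unfolded protein response, fell by 0.46 ± 0.10.

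Clock genes went both ways: 2 of 13 rose and 2 fell, where 7.54% of all genes rose and 5.45% fell. Their median was 0.07, and with the block 4 rose and 3 fell. The output factor Dbp rose by 0.85 ± 0.10 and Per3, a member of the period family, by 0.83 ± 0.15. Arntl, the activator of the clock, fell by 0.75 ± 0.23. Its call was lost without replicate 1 of day 8, replicate 3 of day 8, replicate 2 of day 6 or replicate 3 of day 6 (adjusted p 0.0531 to 0.169). The other clock gene that fell was Per1, whose call was likewise lost without single arrays, as given above. The labels give the day of each sample and not the hour. In DNA replication 3 of 29 fell and in mitosis 2 of 17, where 5.45% of all genes fell. The medians were -0.12 and -0.14, with 0 rises in either. With the block 5 and 4 fell, where 10.6% of all genes did. Only 1 replication gene fell without replicate 2 of day 8, replicate 3 of day 8, replicate 1 of day 6 or replicate 3 of day 6. Markers of macrophages, blood cells and endothelium were mostly at background. Of 9 muscle cell markers with a probe 6 were detected on none of the 6 arrays, and of 8 bone and cartilage markers 4. Comp, a marker of the latter list, rose (adjusted p = 0.00713). Of 11 macrophage and blood cell markers with a probe 8 were detected on none of the 6 arrays, among them Ptprc, Adgre1 and Itgam, and their summed intensity was 2226 to 2287 on day 8 and 2248 to 2396 on day 6. Of 9 endothelial markers 8 were detected on none, among them Pecam1 and Cdh5, and the sums were 1229 to 1269 on day 8 and 1254 to 1309 on day 6. Lyz1, the 1 macrophage marker that rose, was detected on no day 6 array and was at least 1.33-fold higher on day 8 (adjusted p = 0.0021).

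Set in the whole course, the comparison lies between steps with more and with fewer changes. The number of genes called was 3958 (41.4%) for day 4 versus day 2, 2805 (29.3%) for day 6 versus day 4, 1242 for day 8 versus day 6, 378 (3.95%) for day 10 versus day 8 and 473 (4.95%) for day 18 versus day 10. Comparisons that follow each other share arrays, so only their own values are set side by side. In the glucocorticoid receptor list 8 members fell and 4 rose from day 4 to day 6, 11 fell and 0 rose from day 6 to day 8, and 2 fell and 2 rose from day 8 to day 10, with medians of -0.31, -0.60 and -0.08. Of all genes 14% fell and 15.3% rose in the first of these steps, and 1.59% fell and 2.36% rose in the last. Interferon-stimulated genes had 11 rises in each of these steps and 1, 0 and 0 falls, with medians of 0.41, 0.64 and 0.78. The fibrillar matrix had 8, 15 and 9 rises and 5, 0 and 0 falls, with medians of 0.14, 0.56 and 0.42. In the first of these steps the day 4 mean includes replicate 2, the array that stood apart. List values of that step without this array were not computed, so growth from the first step to the next may rest on it.

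**Figure D4:**
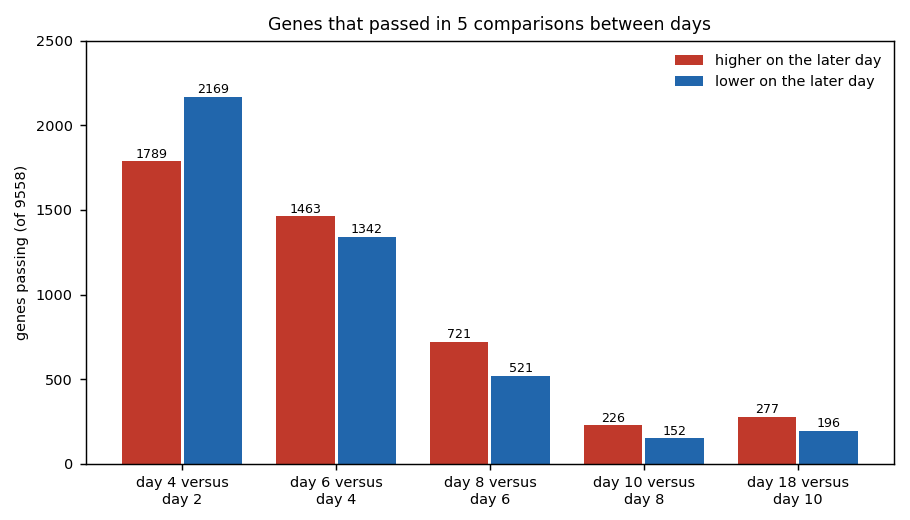
Number of genes that passed, of 9558, in 5 comparisons between days in time order, with genes higher on the later day in red and lower in blue. The bars shrink from 1789 and 2169 genes for day 4 versus day 2 to 226 and 152 for day 10 versus day 8, and the comparison of day 8 with day 6 lies between them with 721 and 521.

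The change from day 6 to day 8 differed from the change from day 4 to day 6 for 1053 genes (11%), being higher for 491 (5.14%) and lower for 562 (5.88%), by a contrast of the 2 differences in the same fit. Those in which it was lower were led by genes that had gone up before: Cyp2e1 changed by 2.22 from day 4 to day 6 and by -2.45 from day 6 to day 8, a difference of -4.67 ± 0.18 (adjusted p = 9.6e-13). Apoc3 and Prodh had the same shape, with differences of -3.68 ± 0.21 and -3.59 ± 0.26, while Ghrh, the growth hormone-releasing hormone, had a difference of -3.83 ± 0.42 and did not pass from day 6 to day 8. Apoc1 had a difference of -3.42 ± 0.98, which was -4.66 ± 0.14 without day 4 replicate 2, and it passed from day 6 to day 8 only without that array. Among those in which the change was higher, Pip, a secreted protein known from prolactin-treated cells, was detected on all 3 day 4 arrays and on no array of day 6 or day 8. Lcn2, Inhba, Dmkn and Ces2g likewise had most of their change before day 6, with differences of 3.41 ± 0.29, 2.75 ± 0.49, 2.21 ± 0.24 and 2.21 ± 0.19.

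Compared with the step that followed, 60 genes (0.628%) had a different change, higher for 25 (0.262%) and lower for 35 (0.366%). The count was 24 without replicate 3 of day 8 and 37 without replicate 2 of day 8. The falls of Fkbp5, Fam107a and Krt14 were larger before day 8 than after it, with differences of -2.40 ± 0.18, -1.85 ± 0.19 and -1.66 ± 0.16. Cyp2e1 and Ang4 also passed, with no size given because neither was detected on day 10. Fkbp5 averaged 11.32 ± 0.03 on day 4, 10.10 ± 0.05 on day 6, 7.33 ± 0.01 on day 8 and 6.97 ± 0.21 on day 10 (SD, n = 3), beside 7.08 ± 0.03 on day 0. Serpina3n had its lowest mean of the 8 days on day 8, at 6.83 ± 0.08, against 7.82 ± 0.06 on day 6, 7.72 ± 0.06 on day 10 and 8.73 ± 0.06 on day 18.

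A few genes had their highest mean on day 8. Mlana, known as an antigen of pigment cells (chr19:29697541-29708447), had 6.59, 6.24 and 6.73 on day 8 and 4.33, 4.68 and 4.73 on day 6, where it was not detected, so it was at least 3.12-fold higher on day 8 (adjusted p = 3.77e-08). It was at 5.27 ± 0.27 on day 10 and 4.59 ± 0.19 on day 18, and its changes before and after day 8 differed (adjusted p = 3.81e-07), with no size given because day 6 was undetected. Gsta1, a conjugating enzyme with close relatives in its family, was detected on all day 8 arrays, on 1 day 10 array and on no array of the other days, and was at least 1.47-fold higher on day 8 than on day 6 (adjusted p = 2.8e-08). Ranbp3l, a nuclear export factor, was at 7.68 ± 0.19 on day 8, against 6.32 ± 0.22 on day 6, and Aldh1l2, a mitochondrial folate enzyme, at 10.03 ± 0.30, against 8.88 ± 0.09. Nrbp2, a pseudokinase, rose by 0.98 ± 0.14 and was at 9.67 ± 0.24 on day 8, below its day 0 level of 9.86 ± 0.22.

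**Figure D5:**
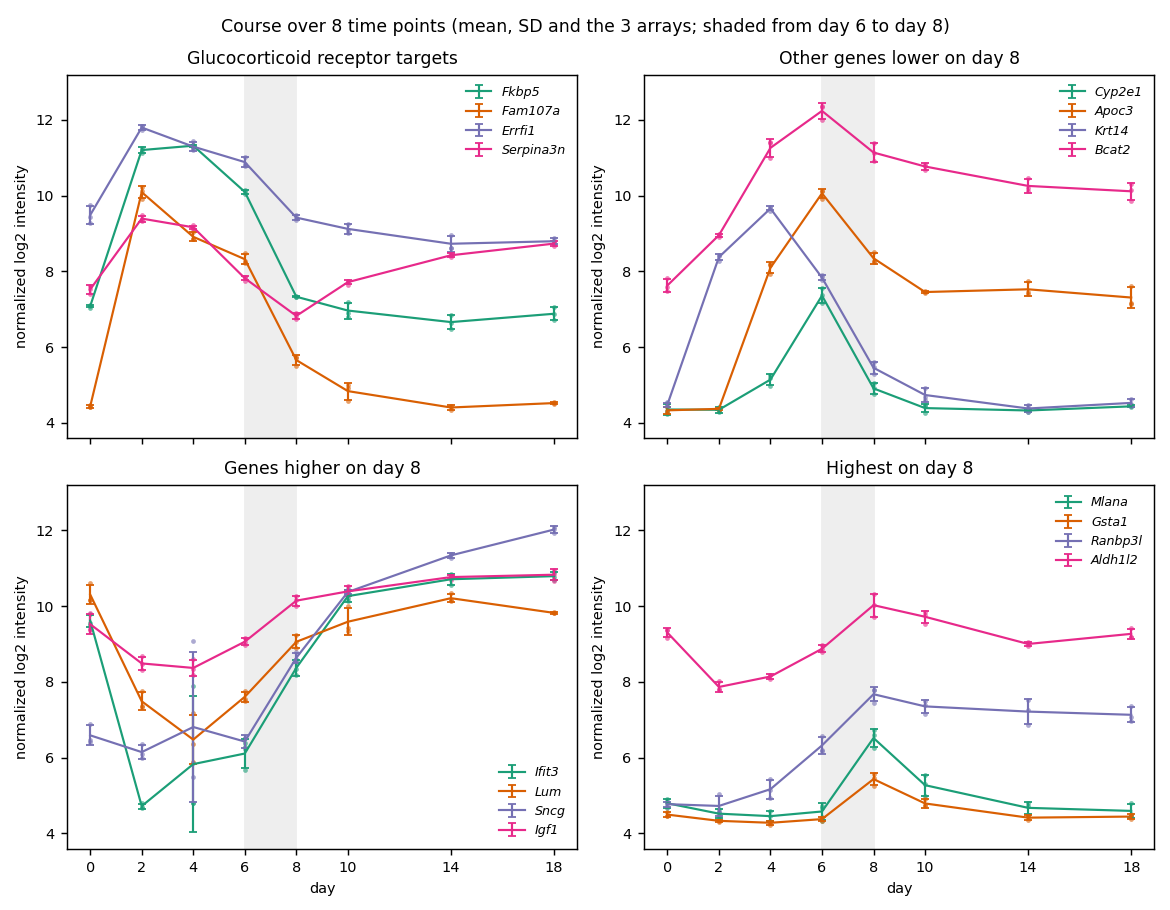
Normalized log2 intensity over the 8 days for 16 genes, with the mean and SD of 3 arrays as lines and bars, single arrays as dots and the interval from day 6 to day 8 shaded. The 4 glucocorticoid receptor targets are lower on day 8 than on day 6, Mlana and Gsta1 have a peak on day 8, and Ifit3 and Sncg have wide bars on day 4, where replicate 2 stands apart.

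Both directions could be looked up in days that share no array with days 8 and 6. Of the 721 genes that rose, 93 (12.9%) were also higher on day 18 than on day 10, where 2.9% of all genes were, and 21 (2.91%) were lower. They made up 33.6% of the genes higher on day 18. Of the 521 that fell, 54 (10.4%) were also lower on day 18 than on day 10, where 2.05% of all genes were, and 12 (2.3%) were higher, and the 54 made up 27.6% of the genes lower on day 18. The step from day 2 to day 4, which includes day 4 replicate 2, ran mostly the other way. Of the 721, 364 (50.5%) were lower on day 4 than on day 2, where 22.7% of all genes were, and 135 (18.7%) were higher. Of the 521, 275 (52.8%) were higher on day 4, where 18.7% of all genes were, and 77 (14.8%) were lower.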

How the data were processed

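The authors deposited probe intensity values on a linear scale, neither background-subtracted nor normalized between arrays, with a detection p-value per probe, for 25697 probes on 24 arrays, per the file headers. A second deposited table, of normalized intensity, served as an alternative. GenomeStudio 2011.1 is named in the submitters' processing notes, with no role given. Background correction, quantile normalization and log2 were done in 1 call of neqc (offset 16; limma 3.58.1, R 4.3.3). The deposited table was taken as it stands, and this log2 scale is not the authors'. Kept were the 14160 probes whose detection p was below 0.05 on 3 or more arrays, and the probe with the highest mean stood for each of 9558 genes. Of all probes 23978 had 1 gene symbol, 0 several and 1719 none. Entrez identifiers of 23962 probes matched RefSeq's annotation of GRCm38.p6, which also gave positions and promoters.

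A mean per day was fitted to all 24 arrays with lmFit and eBayes (16 residual degrees of freedom), and moderated two-sided tests were adjusted by Benjamini-Hochberg over all genes. The replicate numbers pair the samples: deviations of same-numbered arrays of days 8 and 6 correlated at 0.75, 0.65 and 0.47, those of other numbers at -0.59 to 0.09, and the best match of all 24 arrays carried its own number. A fit with the number as a block therefore stands beside the plain fit. For probes detected on no array of one day the fold is a lower bound, in which each array of the dim day is set at its lowest detected signal or, if higher, at the measured value. The lowest detected signal was at 4.79 to 4.91. The 40 gene lists and the members named were chosen with earlier results of these data known, and 669 of the 867 list genes were tested. Named genes are the 15 largest rises and falls with no overlap between days, up to 4 called members of each list, members against their list's direction, a fixed set, and the 5 largest each way for differences between steps. The fit was tested on simulated data with independent noise on each array. That simulation held neither the pairing by replicate number nor an array that stands apart, so it does not cover them. Summed marker intensities are of the table before normalization. The number of arrays limits the precision.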

Additional observations from a re-analysis of the deposited data

Results flagged for a closer look

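The change from day 6 to day 8 differed from the change from day 4 to day 6 for 1053 genes, by a test of the difference itself. It differed from the change from day 8 to day 10 for 60 genes, by the same kind of test.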

How the results depend on the processing

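Over 152 named genes and all alternatives, 3342 values were computed: 2996 stayed on their side of the threshold in the same direction, 331 lost the call, 15 gained it and 0 reversed. With the replicate block 2231 genes were called (1217 higher, 1014 lower), and 1242 without it. The 6 arrays alone gave 614 (402 higher, 212 lower), and 790 lower with the block on them. Changes of at least 2-fold numbered 28 without background correction and 45 with normexp at offset 50. Differences from the step before numbered 1937 with the block, and from the step after 91 without background correction, 102 in the authors' table and 264 with the block. Day 10 versus day 8 had 1016 and day 18 versus day 10 had 1176 with the block. Leaving out 1 array gave 834 to 1092 genes called (504 to 656 higher, 330 to 489 lower, 109 to 136 at least 2-fold), 737 to 1031 differing from the step before and 24 to 59 from the step after. The 330 falls were without day 8 replicate 3. In the fit with the block, leaving out 1 number gave 1017 to 1565. Leaving a replicate number out of both days, an alternative added after the data were seen with fewer arrays fitted, gave 336 falls without number 1, 727 calls (430 higher, 297 lower) without number 2 and 635 (372 higher, 263 lower) without number 3, with 105 to 130 at least 2-fold. The cause of the other shifts was not tested. Weak probes near background limit the size of a change, and 3 arrays per day its precision.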
